A study of Homo sapiens with 9 samples.

Results

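The genes described here act in activin and TGF-beta signalling and number 10 of the 61155 gene symbols in the count tables, all of which were among the 17759 genes that passed the low count filter. They were taken by symbol and comprise the activin subunit genes INHBA and INHBB, the activin antagonist FST, the ligand genes TGFB1 and TGFB2, the receptor genes TGFBR1 and TGFBR2, the signal transducer SMAD3, and SMAD7 and SKIL, whose products dampen the pathway. INHBA was selected on its measured RNA level, which is higher in both knockout clones, so its levels against the control are a description and carry no test.

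MDA-MB-231 is an established human breast cancer cell line, labelled basal-like. Total RNA was sequenced in 9 libraries. The control group (WT) was FBXL12-WT cells transduced with a scrambled guide RNA, and the other groups were 2 FBXL12-KO clones (KO1 and KO2), with 3 libraries in each group and no treatment named. FBXL12 encodes an F-box protein, the substrate-recognising part of an SCF ubiquitin ligase. Each clone stands for the genotype once, whereas the control is not described as a clone, so the effect of losing FBXL12 and differences between single-cell derivatives of the line cannot be told apart within either clone. Separate cultures are not named in the labels, so the p-values rest on a spread between libraries that could be purely technical.

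Activins are dimers of inhibin beta subunits, activin A of the INHBA product and activin B of the INHBB product. Activins and TGF-betas bind a type II receptor, which activates a type I receptor, which phosphorylates SMAD2 and SMAD3; these join SMAD4 and enter the nucleus. Follistatin, the FST product, captures activins outside the cell. SMAD7 blocks the type I receptors and SKIL encodes SnoN, a nuclear corepressor of SMADs, and both genes are induced by the pathway as feedback. In breast cancer cells the pathway is known for growth arrest in early disease and for invasion and mesenchymal traits in advanced disease.

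Total counts ran from 52427841 to 97243363 per library, and a count of 0 allows up to 3 counts, or 0.0305 to 0.0574 CPM (counts per 1e6 of the library total, here scaled by TMM factors); that limit covers counting error only. FBXL12 mRNA was lower in both clones, at 43.2% of the WT level in KO1 and 26.7% in KO2, but was not absent. Most of its 20 nearest tested coding genes were lower as well, with 3 of the 20 higher in each clone. Their median was -0.38 on the log2 scale for KO1 and -0.78 for KO2, against -1.21 and -1.91 for FBXL12 itself. With the trend of each library over GC content removed, the medians were -0.30 and -0.58. Of 8 mesenchymal markers, 7 reached a mean of 1 CPM in a group, with VIM at 2810 CPM in WT, while CDH2 did not (0.281 CPM in WT). Of 10 luminal epithelial markers, 7 reached it too, with KRT8, KRT18 and KRT19 at means of 415, 463 and 220 CPM in WT. ESR1, PGR and CDH1 did not. The basal keratin genes KRT5, KRT6A and KRT14 did not exceed 0.321 CPM in any library. Of 8 basal markers, 2 reached a mean of 1 CPM in a group. They were EGFR, at means of 527, 459 and 817 CPM in WT, KO1 and KO2, and ITGB4, at 76.5, 75.3 and 38.0 CPM. KRT17, TP63 and CDH3 stayed below a mean of 1 CPM in every group, as did KRT5, KRT6A and KRT14. Most of the listed markers thus did not match the basal label. Of 10 fibroblast markers, 2 reached a mean of 1 CPM in a group; their summed level was 4.72 to 5.87 CPM in WT, 4.56 to 5.23 in KO1 and 4.37 to 4.97 in KO2, with LUM at 0. None of 10 leukocyte markers reached a group mean of 1 CPM, with MS4A1 and AIF1 at 0. Of 6 endothelial markers only KDR reached it, at means of 14.4, 21.1 and 19.3 CPM in WT, KO1 and KO2. Of 7 tested luminal epithelial markers, 4 fell and 1 rose in KO1 and 5 fell in KO2, at an adjusted p under 0.05. Of all tested genes, 34.8% were called in KO1 and 49.4% in KO2 at that threshold. The luminal median log2 change was -0.22 in KO1 and -0.30 in KO2, and -0.10 and -0.16 with the GC trend removed. Of 8 mesenchymal markers, 2 rose in KO1, and 4 rose and 2 fell in KO2; their summed level was 6240 to 6680 CPM in WT, 6850 to 7060 in KO1 and 7750 to 7850 in KO2. Of 4 tested basal markers, 1 fell in KO1, and 1 rose and 2 fell in KO2. Summed over all 8 basal markers, the level was 604, 536 and 856 CPM on average in WT, KO1 and KO2, most of it EGFR. The part of these marker shifts in the results on the members was not tested. In bulk RNA, a change in the share of cells that express a gene and a change in RNA per cell cannot be told apart.

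Promoter sequence of 3 members is shown because they stand for the main patterns: INHBA, a ligand subunit gene higher in both clones, FST, the gene of its antagonist, lower in both, and SKIL, a feedback gene that moved in opposite directions. The windows searched were the 250 bases before the transcription start in RefSeq (GRCh38.p14). For INHBA this window lies inside the gene as placed by GENCODE 29 (chr7:41667168-41705834). The bases before that GENCODE start were not searched. For INHBA and SKIL, stretches inside exons of the gene in GENCODE 29 are left out, which shortens INHBA to 232 bases (chr7:41703109-41703340, minus strand) and SKIL to 213 (chr3:170357465-170357677, plus strand). The FST window lies mostly inside the first exon of a GENCODE transcript, and only the 29 bases around its motif match are given (chr5:53480458-53480486, plus strand), which are themselves inside that exon. All are written 5′ to 3′ on the gene's strand, with motif matches in capitals.
INHBA: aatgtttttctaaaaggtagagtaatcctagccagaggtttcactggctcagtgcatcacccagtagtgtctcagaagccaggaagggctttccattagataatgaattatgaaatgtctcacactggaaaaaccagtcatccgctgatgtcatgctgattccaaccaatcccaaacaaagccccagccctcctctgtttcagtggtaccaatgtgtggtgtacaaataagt
FST: gaaatgtcaccTGATTCAcactgaacttt
SKIL: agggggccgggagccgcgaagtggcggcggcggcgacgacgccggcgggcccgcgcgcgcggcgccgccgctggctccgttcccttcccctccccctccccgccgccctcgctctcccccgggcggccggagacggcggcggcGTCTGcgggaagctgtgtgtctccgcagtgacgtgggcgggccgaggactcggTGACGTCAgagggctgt
Motifs searched on both strands were CAGAC (the SMAD box), TGANTCA (the AP-1 type motif), TGACGTCA (the CRE, bound by CREB family factors) and the palindrome GTCTAGAC. They occur in 38.0%, 6.57%, 1.65% and 0.182% of the 35116 windows of the same length in the RefSeq table. The FST window held 1 match, to TGANTCA, 160 bases before the start. SKIL held CAGAC once, on the other strand 107 bases before the start, and TGACGTCA once, 54 bases before it. None of the 4 motifs was found in the INHBA window, the bases left out included. Of the other members with 1 start in the table, TGFB2 had 2 matches to CAGAC, and INHBB and TGFB1 had none. A match is a string of letters, not a measure of binding, and the lack of one says nothing about the factor.

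Per kilobase of exon, TGFBR2 mRNA was the most abundant of the 10 in every group, at 71.6 ± 2.37 CPM per kb in WT, 101.4 ± 2.69 in KO1 and 84.8 ± 0.846 in KO2 (SD, n = 3). In WT it was followed by FST (33.5), SMAD3 (31.4), TGFB1 (20.9), INHBB (13.9), TGFBR1 (8.46), TGFB2 (5.41), SKIL (3.82), SMAD7 (0.884) and INHBA (0.312), all in CPM per kb. The clones shared an order with each other that differed from this one in exactly 2 exchanges. SMAD3 stood above FST in KO1 (43.2 against 24.8 CPM per kb) and in KO2 (25.0 against 23.4), and INHBA stood above SMAD7 in KO1 (1.98 against 1.03) and in KO2 (1.13 against 0.668). Neighbours in this order whose difference was within their spread were FST and TGFB1 in KO1 (24.8 ± 1.57 and 21.7 ± 3.13) and INHBB and TGFBR1 in KO2 (11.2 ± 0.822 and 10.6 ± 0.518). Exon lengths are unions over all annotated transcripts, so the order between genes depends on which transcripts are made.

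**Figure D1:**
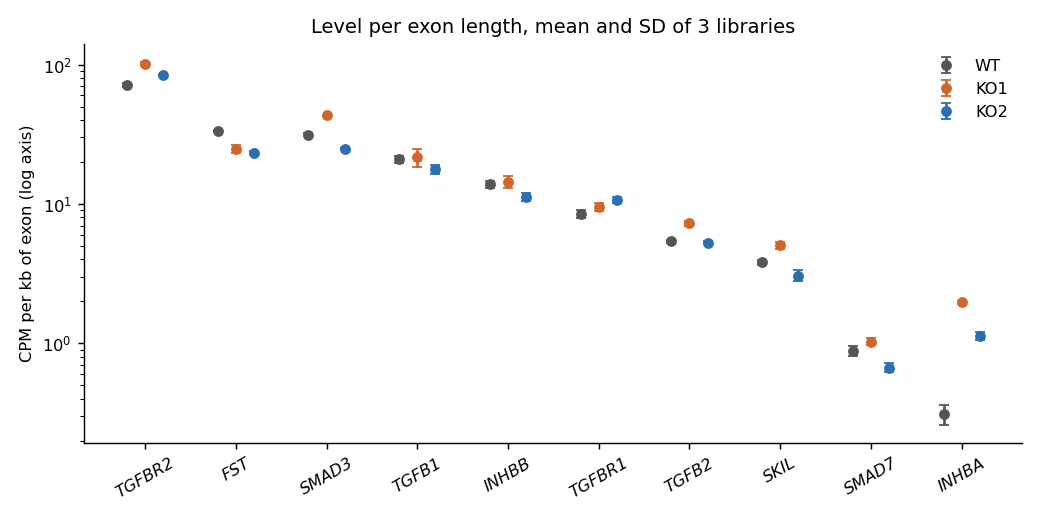
Level per kilobase of exon (CPM per kb, log axis) of the 10 genes in WT, KO1 and KO2; points are means of 3 libraries and bars are SD. TGFBR2 is highest in every group, and INHBA moves from below SMAD7 in WT to above it in both clones.

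INHBA (ENSG00000122641.10, chr7:41667168-41705834, minus strand, GRCh38), which encodes the inhibin beta A subunit of activin A, was higher in every knockout library than in any control library. It was at 2.43, 2.27 and 3.07 CPM in WT libraries 1 to 3, at 16.4, 16.8 and 16.0 CPM in KO1, and at 8.67, 9.54 and 9.81 CPM in KO2. These levels rest on 138 to 239 reads per library in WT, 1279 to 1394 in KO1 and 453 to 629 in KO2. The means were 6.34 times the WT mean in KO1 and 3.61 times in KO2, with fitted log2 changes of 2.67 ± 0.10 (SE here and below; 95% interval 2.44 to 2.89) and 1.86 ± 0.11 (1.63 to 2.08). The 3 KO1 libraries also lay above all 3 KO2 libraries. That difference between the clones was not used in the choice of the gene: it was 0.81 ± 0.10 on the log2 scale (edgeR quasi-likelihood test, Benjamini-Hochberg adjusted p = 3.59e-06). The antisense gene INHBA-AS1 overlaps INHBA at its 5′ end and had 0 to 19 reads per library, and whether the counting used strand is not stated in the labels, so reads from these genes cannot be told apart.

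INHBB (ENSG00000163083.5, chr2:120346143-120351808, plus strand), which encodes the beta B subunit, did not move with INHBA. Its level was 42.0, 47.4 and 43.9 CPM in WT, 50.3, 41.5 and 46.9 CPM in KO1, and 36.5, 38.4 and 33.2 CPM in KO2. KO1 overlapped WT, and all KO2 libraries lay below both. The log2 change in KO1 was 0.06 ± 0.07 (adjusted p = 0.576, interval -0.10 to 0.22). INHBB fell in KO2, with a log2 change of -0.30 (adjusted p = 0.00374). With the trend of each library over GC content removed, the change in KO1 was 0.19 and passed the test (adjusted p = 0.000751; 0.000751 to 0.939 over all alternatives tried).

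FST (ENSG00000134363.11, chr5:53480409-53487134, plus strand), which encodes follistatin, fell in both clones. It was at 99.9, 98.3 and 99.9 CPM in WT, at 69.2, 78.5 and 73.4 CPM in KO1, and at 69.5, 67.9 and 70.7 CPM in KO2. Every knockout library lay below every control library, and the clones overlapped each other. The means were 74.2% and 69.8% of WT, and the log2 changes -0.43 ± 0.05 in KO1 (adjusted p = 7.45e-06) and -0.52 ± 0.05 in KO2 (adjusted p = 3.9e-07). FST was the only member that fell in both. The difference between the clones was 0.09 (interval -0.02 to 0.19, adjusted p = 0.151); it passed the test without KO1 library 1, where it was 0.145, and with the GC trend removed.

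Set against each other per kilobase, INHBA amounted to 0.87, 0.826 and 1.1 per 100 of FST in the WT libraries. The same ratio was 8.48, 7.66 and 7.79 in KO1 and 4.46, 5.03 and 4.97 in KO2. INHBA mRNA thus stayed far below FST mRNA in all 9 libraries while the ratio between them rose. INHBB, the other subunit gene, was much closer to FST, at 13.9 against 33.5 CPM per kb in WT, 14.4 against 24.8 in KO1 and 11.2 against 23.4 in KO2. The group means were 0.931 ± 0.146, 7.98 ± 0.439 and 4.82 ± 0.31 (SD, n = 3), and no test is given because the ratio contains INHBA.

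**Figure D2:**
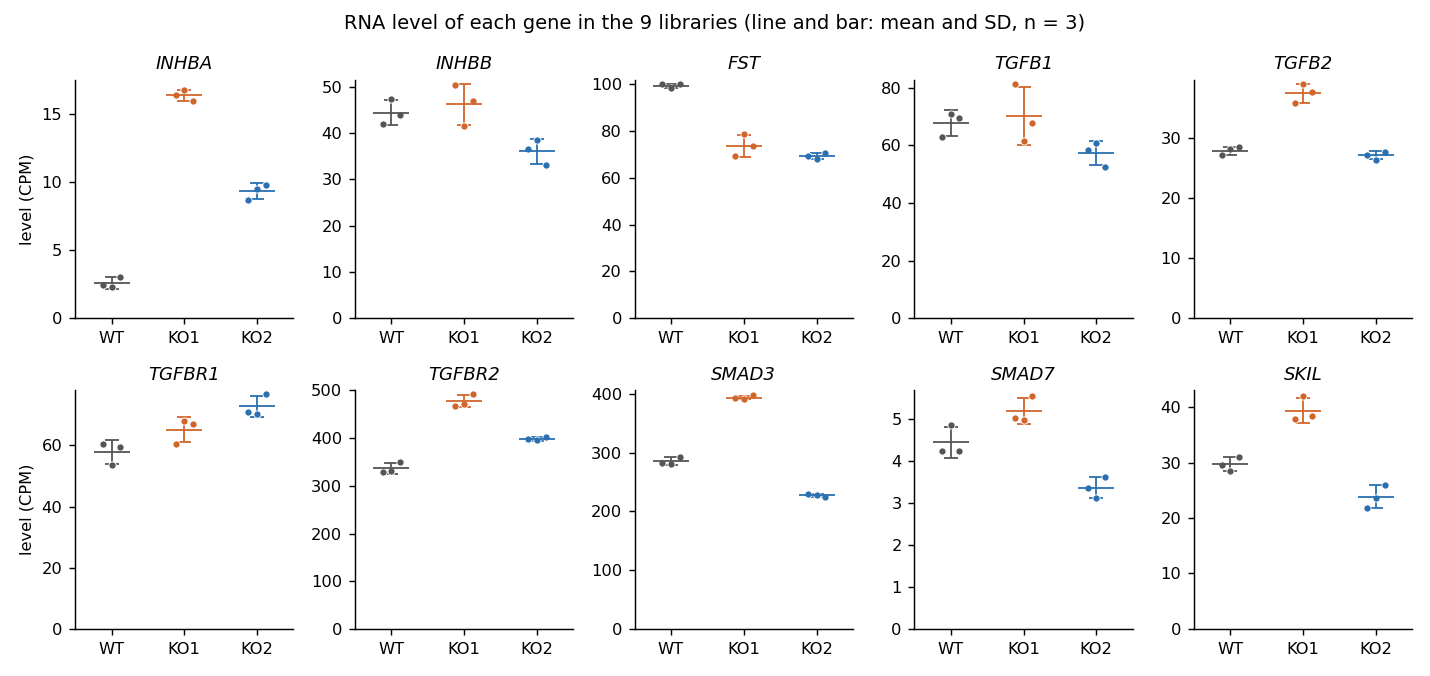
Level (CPM, axis from 0 in each panel) of each of the 10 genes in every library of WT, KO1 and KO2, with the group mean and SD as lines. All 6 knockout libraries lie above WT for INHBA and TGFBR2 and below it for FST, while SMAD3 and SKIL lie above WT in KO1 and below it in KO2.

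TGFB1 (ENSG00000105329.9, chr19:41301587-41353911, minus strand), which encodes the TGF-beta 1 ligand, was the member with the widest spread among KO1 libraries relative to its mean (SD 14.5% of the mean). It was at 62.7, 70.8 and 69.5 CPM in WT, at 81.3, 61.4 and 67.7 CPM in KO1, and at 58.3, 60.7 and 52.6 CPM in KO2. KO1 overlapped WT on both sides, whereas all KO2 libraries were below WT. Neither change passed the test: in KO1 it was 0.05 ± 0.10 (adjusted p = 0.719, interval -0.17 to 0.27), and in KO2 -0.24 ± 0.10 (adjusted p = 0.067, interval -0.46 to -0.02). The KO1 change was -0.051 without KO1 library 1, and the KO2 change passed the test without KO1 library 1 (-0.24), KO1 library 2 (-0.25) or WT library 1 (-0.29). TGFB1 transcripts are GC-rich (63.5%), and with the GC trend removed the changes were 0.35 in KO1 and 0.14 in KO2, both past the test, so no direction can be given for this gene in KO2. B9D2, the next gene upstream on the same strand, which does not overlap TGFB1 in GENCODE 29, was at 4.04, 2.83 and 2.96 CPM in WT, KO1 and KO2.

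TGFB2 (ENSG00000092969.11, chr1:218346235-218444619, plus strand), which encodes the TGF-beta 2 ligand, rose in KO1. It was at 27.1, 28.1 and 28.4 CPM in WT, at 35.7, 38.9 and 37.6 CPM in KO1, and at 27.1, 26.4 and 27.7 CPM in KO2. All KO1 libraries were above the other 6, and KO2 overlapped WT. The log2 change was 0.43 ± 0.05 in KO1 (adjusted p = 2.27e-05) and -0.04 in KO2 (interval -0.16 to 0.07, adjusted p = 0.548), and the clones differed by 0.47 (adjusted p = 2.81e-06). The antisense gene TGFB2-AS1, which lies upstream without overlapping TGFB2 in GENCODE 29, had 13 to 42 reads per library, and TGFB2-OT1, annotated within TGFB2, was at 0 in all 9.

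TGFBR2 (ENSG00000163513.17, chr3:30606502-30694142, plus strand), which encodes the type II receptor that binds TGF-beta, rose in both clones. Its level was 329.6, 331.2 and 349.7 CPM in WT, 468.4, 471.5 and 491.7 CPM in KO1, and 397.8, 395.4 and 403.1 CPM in KO2. The 3 groups did not overlap. The log2 changes were 0.50 ± 0.04 in KO1 (adjusted p = 1.47e-07) and 0.24 in KO2 (adjusted p = 8.09e-05), and the difference between the clones was 0.26 (adjusted p = 3.81e-05).

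TGFBR1 (ENSG00000106799.12, chr9:99104038-99154192, plus strand), which encodes the type I receptor ALK5, had the reverse order of the clones, with more in KO2. It was at 60.5, 53.5 and 59.6 CPM in WT, at 60.5, 68.1 and 67.0 CPM in KO1, and at 71.0, 70.4 and 76.8 CPM in KO2. KO2 lay above the other 6 libraries, and the lowest KO1 library was barely above the highest WT library (60.52 and 60.51 CPM). In KO2 TGFBR1 rose by 0.33 (adjusted p = 0.000333). The change of 0.17 ± 0.06 in KO1 only just passed the test (adjusted p = 0.0382) and did not pass it without KO1 library 2 (0.14), KO1 library 3 (0.16), KO2 library 1 (0.17) or WT library 2 (0.13), nor with the GC trend removed (0.08). The difference between the clones was -0.16 (adjusted p = 0.0411). It did not pass without KO1 library 1 (-0.09) or 3 (-0.17), any KO2 library (-0.16, -0.17 and -0.12), or WT library 1 or 3 (-0.15 each).

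SMAD3 (ENSG00000166949.15, chr15:67063763-67195195, plus strand), which encodes a transducer of activin and TGF-beta signals, rose in one clone and fell in the other. Its level was 282.8, 280.9 and 293.5 CPM in WT, 393.3, 391.4 and 397.6 CPM in KO1, and 230.3, 227.8 and 225.1 CPM in KO2. The 3 groups were far apart relative to their spread. SMAD3 rose by 0.46 ± 0.04 in KO1 (adjusted p = 1.67e-07) and its log2 change in KO2 was -0.33 (adjusted p = 2.17e-06), a difference of 0.79 between the clones (adjusted p = 1.01e-10).

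SKIL (ENSG00000136603.13, chr3:170357678-170396835, plus strand), which encodes SnoN, followed the pattern of SMAD3. Its level was 29.6, 28.5 and 31.1 CPM in WT, 37.8, 42.0 and 38.3 CPM in KO1, and 21.8, 23.7 and 26.0 CPM in KO2, with no overlap between groups. It rose by 0.41 ± 0.07 in KO1 (adjusted p = 0.000291) and fell in KO2, with a log2 change of -0.32 (adjusted p = 0.00137).

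SMAD7 (ENSG00000101665.9, chr18:48919853-48952052, minus strand), which encodes the inhibitory SMAD, was low throughout. It was at 4.23, 4.87 and 4.24 CPM in WT, at 5.03, 4.99 and 5.56 CPM in KO1, and at 3.37, 3.11 and 3.61 CPM in KO2. The groups did not overlap, although the step from WT to KO1 was small. The log2 change in KO1 was 0.23 ± 0.10 (interval 0.00 to 0.45, adjusted p = 0.108) and that in KO2 was -0.40 ± 0.11 (adjusted p = 0.00634). With the GC trend removed, the KO1 change passed the test (0.41) and the KO2 change did not (-0.20). The difference between the clones was 0.63 (adjusted p = 0.000158) and 0.61 with the GC trend removed.

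Counted over the 9 members other than INHBA, 5 rose, 1 fell and 3 were not called in KO1 (TGFB2, TGFBR1, TGFBR2, SMAD3 and SKIL against FST), at an adjusted p under 0.05. Of all 17759 tested genes, 34.8% were called in that comparison, 18.0% up and 16.8% down. In KO2, 2 of the 9 rose (TGFBR1 and TGFBR2), 5 fell (INHBB, FST, SMAD3, SMAD7 and SKIL) and 2 were not called, against 49.4% of all tested genes called, 24.7% in each direction. The median log2 change of the 9 was 0.23 in KO1 and -0.30 in KO2, beside 0 and -0.01 over all tested genes. With the GC trend removed these counts were 7 up and 1 down in KO1 and 3 up and 4 down in KO2, with medians of 0.34 and -0.17. The shares of all tested genes given here belong to the fit without this removal. Over all alternatives tried, 4690 to 6877 genes were called in KO1 and 7685 to 9541 in KO2, beside 6178 and 8776 in that fit. Both comparisons use the same WT libraries. Including INHBA, whose groups the choice fixes, the libraries of the groups did not overlap for 8 of 10 members in KO1 and 9 of 10 in KO2, against 46.5% and 58.8% of all tested genes.

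Set directly against each other, the clones differed at 9 of the 10 members, 8 higher in KO1 and TGFBR1 higher in KO2, with FST not called; 48.9% of all tested genes were called in that comparison, 23.9% higher and 24.9% lower in KO1. The members' median difference was 0.42, beside -0.01 for all tested genes, and the libraries of the clones did not overlap for 9 of 10 members (55.1% of all tested genes). The TGFB1 difference of 0.29 (adjusted p = 0.0311) did not pass the test without KO2 library 1 (0.32) or KO2 library 3 (0.24). With the GC trend removed all 10 were called, 9 of them higher in KO1. The share of 48.9% belongs to the fit without this removal. Over all alternatives tried, 7595 to 9805 genes were called between the clones, beside 8679 in that fit. Of the 9 members tested against WT, FST and TGFBR2 were the ones that kept a call in the same direction in both clones whichever library was left out.

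**Figure D3:**
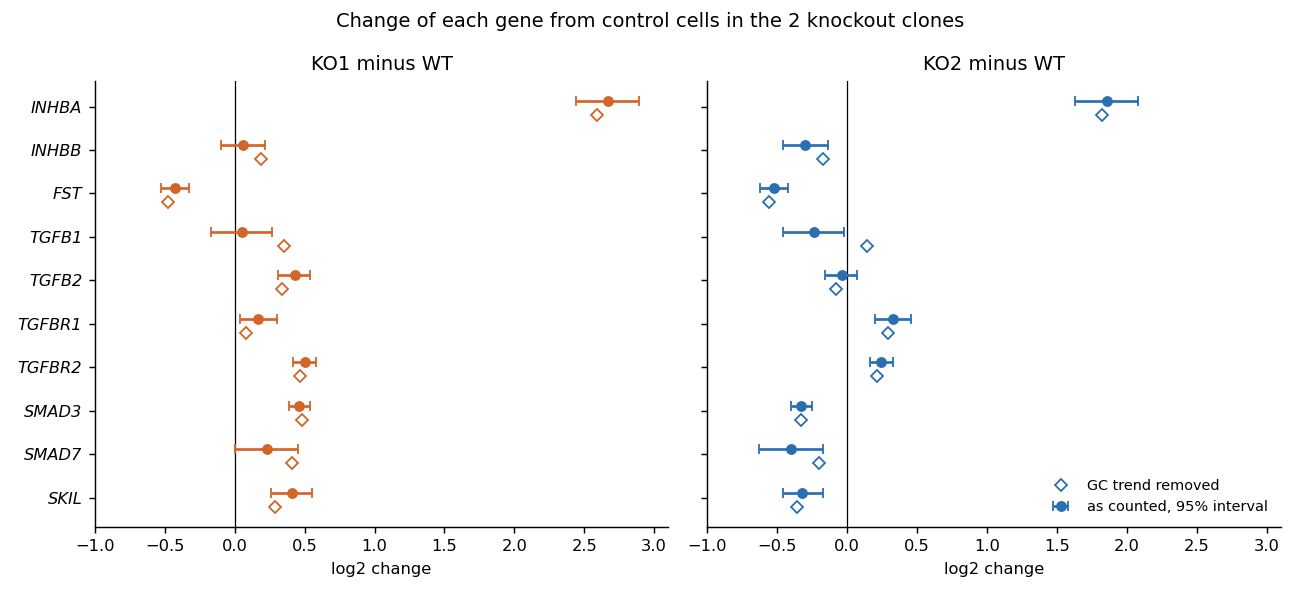
Log2 change from WT of the 10 genes in KO1 and KO2, with 95% intervals as bars (filled) and with the GC trend removed (open diamonds). All genes but TGFBR1 lie lower in KO2 than in KO1, although the FST difference between the clones was not called. FST is below 0 in both, and INHBA, plotted without a test, is above 0 in both.

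To show what the surrounding chromosome did, each member was set beside its 20 nearest tested protein-coding genes whose mean log2 CPM was 2 or more, 10 on each side. INHBA was chosen for its rise in both clones, which favours a place above its neighbours, so that place is a description only. The median log2 change of its neighbours was -0.08 in KO1 and 0.48 in KO2, with 19 of 20 higher in KO2. For TGFBR1 the medians were -0.07 and 0.46, again with 19 of 20 higher in KO2, and its own change there (0.33) was within that of its surroundings. FST, at -0.43 and -0.52, had neighbours with medians of 0.09 and 0.00; it was below all of them in KO1 (lowest -0.32) and within their range in KO2 (lowest -1.15). TGFB2, at 0.43 in KO1, had neighbours with a median of 0.06 and was within their range (highest 0.48). DNA was not measured in these files, and the part of regional shifts in the members' changes was not tested.

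All 20 neighbours of SMAD3 were lower in KO2, with a median of -0.96, so SMAD3 itself (-0.33) fell less than most of them. The 10 on the side of lower coordinates ranged from -1.61 to -1.22 (median -1.38), and the 10 on the other side from -0.70 to -0.21 (median -0.49). In KO1 the medians of both sides were 0.16, where SMAD3 was at 0.46. SMAD7, at -0.40 in KO2, also had neighbours of a like size (median -0.49, 1 of 20 higher). SKIL, which fell by 0.32 in KO2, had neighbours with a median of 0.10 there and was within their range (lowest -0.44). The neighbours of TGFBR2 had medians of -0.16 in KO2 and 0.18 in KO1, below TGFBR2 itself in both clones. TGFBR2 was above all of its neighbours in KO1 (highest 0.38) and within their range in KO2 (highest 0.79). Among the 10 members, removing the GC trend moved no neighbour median by more than 0.1 except for TGFB1, whose neighbours went from -0.18 to -0.02 in KO1 and from -0.13 to 0.02 in KO2.

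Beyond the members, 99 further genes of the pathway were listed by role, and 83 of them were tested. In KO1, 34 of the 83 rose (41.0%) and 9 fell (10.8%), beside 18.0% and 16.8% of all tested genes. In KO2, 31 rose (37.3%) and 28 fell (33.7%), beside 24.7% each. The lists were drawn up with earlier results of these data known. Nothing particular to the pathway is read from these shares or from the counts by role below.

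Among 10 other ligand genes 3 were tested, since most, such as NODAL, MSTN and the inhibin alpha gene INHA, had too few reads. TGFB3, which encodes the TGF-beta 3 ligand, was low and fell in KO1, from 2.53 ± 0.235 CPM in WT to 1.40 ± 0.185 (SD, n = 3), a log2 change of -0.85 (adjusted p = 0.000498). It was at 1.90 CPM in KO2, with a change of -0.42 (adjusted p = 0.0318) that did not pass the test without KO2 library 2 (-0.38) or 3 (-0.35) or WT library 1 (-0.44) or 3 (-0.34). GDF11, a ligand related to myostatin, rose in KO2 by 0.28.

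Of 11 tested receptor and co-receptor genes, 2 rose and none fell in KO1 (18.0% and 16.8% of all tested genes). In KO2, 6 rose and 3 fell (24.7% each). ACVR1, which encodes the type I receptor ALK2, rose in both clones, from 26.9 to 36.6 and 34.0 CPM (log2 changes 0.44 and 0.34, adjusted p = 1.64e-05 and 9.21e-05). The BMP type II receptor gene BMPR2 rose in KO2, from 67.1 to 123.1 CPM (0.88, adjusted p = 4.45e-09), while its change in KO1 was 0.13 (adjusted p = 0.0798). BMPR1B fell in KO2 (-0.73), and ACVRL1 rose in both clones from 7 to 21 reads per library in WT to 29 to 39 in KO1 and 25 to 30 in KO2.

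Of 8 tested genes listed under extracellular inhibitors and latency proteins, 2 rose and none fell in KO1 (18.0% and 16.8% of all tested genes). In KO2, 4 rose and 3 fell (24.7% each). LTBP1, whose product stores latent TGF-beta in the matrix, rose in both clones, from 28.8 to 42.6 and 39.2 CPM (0.56 and 0.44, adjusted p = 1.68e-06 and 7.28e-06). FSTL1, a follistatin-like secreted protein gene, rose by 0.33 and 0.38. LTBP2 rose in KO2, from 11.8 to 24.1 CPM (1.03), and was at -0.02 in KO1. The gene of the pseudoreceptor BAMBI rose in KO2 by 0.73 and was at 0.02 in KO1, and the clones differed for both genes (adjusted p = 6.37e-09 and 5.4e-06).

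Among 9 tested genes of latency activators, 4 rose and none fell in KO1 (18.0% and 16.8% of all tested genes). In KO2, 2 rose and 3 fell (24.7% each). THBS1, which encodes thrombospondin 1, was at 1027, 1073 and 1058 CPM in WT, at 1737, 1729 and 1722 CPM in KO1, and at 880.8, 869.4 and 912.3 CPM in KO2. It rose by 0.72 in KO1 and its change in KO2 was -0.25, the same order of groups as for SMAD3 (adjusted p = 1.74e-09 and 3.69e-05). ITGAV, the integrin alpha V gene, rose in both clones (0.47 and 0.69), ITGB1 rose in KO1 (0.38) and ITGB5 fell in KO2 (-0.47).

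All 6 other SMAD genes were tested, and 3 rose and 1 fell in KO1 (18.0% and 16.8% of all tested genes). In KO2, 1 rose and 3 fell (24.7% each). SMAD2, the partner transducer of SMAD3, had the same opposite changes, 0.28 in KO1 and -0.50 in KO2 (adjusted p = 0.000235 and 3.87e-07), as had SMAD4 (0.36 and -0.48), which is named after its values were seen. Both lie on chromosome 18, where their neighbours had medians of -0.49 and -0.58 in KO2. SMAD6, an inhibitory SMAD whose gene is the protein-coding neighbour of SMAD3 on chromosome 15, was at 3.82, 3.83 and 3.86 CPM in WT, at 3.92, 4.18 and 3.77 CPM in KO1, and at 0.364, 0.501 and 0.379 CPM in KO2. Its KO2 libraries held 19 to 33 reads of the gene against 233 to 376 in WT. That is 10.8% of the WT level, a log2 change of -3.20 ± 0.15 (adjusted p = 1.86e-10), beyond the range of -1.61 to -0.21 of its 20 neighbours.

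Of 20 tested SMAD regulators, 10 rose and 2 fell in KO1 (18.0% and 16.8% of all tested genes). In KO2, 8 rose and 6 fell (24.7% each). PMEPA1 and LDLRAD4 encode related membrane proteins that hold back receptor-activated SMADs, and both rose in both clones. PMEPA1 was at 13.5, 13.7 and 15.5 CPM in WT, 28.96, 26.1 and 28.6 CPM in KO1 and 19.9, 20.3 and 19.4 CPM in KO2 (0.97 and 0.48, adjusted p = 7.49e-08 and 3.68e-05). LDLRAD4 went from 2.23 to 5.36 and 4.26 CPM (1.26 and 0.93, adjusted p = 7.97e-07 and 7.76e-06). Their neighbours had medians of 0.16 and 0.17 in KO1 and of -0.29 and -0.27 in KO2. The corepressor gene TGIF2 fell in both clones (-0.22 and -0.54), and the kinase gene HIPK2 rose in both (0.22 and 0.55).

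Of 26 tested TGF-beta target genes, 13 rose and 5 fell in KO1 (18.0% and 16.8% of all tested genes). In KO2, 9 rose and 9 fell (24.7% each). Their median changes were 0.15 in KO1 and -0.07 in KO2. TGFBI, which encodes a matrix protein named for its induction by TGF-beta, was at 74.8, 73.2 and 76.5 CPM in WT, at 156.9, 156.2 and 155.1 CPM in KO1, and at 166.7, 159.9 and 161.0 CPM in KO2. It rose by 1.06 and 1.12 (adjusted p = 7.2e-11 and 9e-12). KLF10, a TGF-beta inducible zinc finger gene, rose by 0.27 and 0.41. The helix-loop-helix gene ID2, which TGF-beta is known to repress in epithelial cells, rose by 0.95 and 0.86 from 1.48 CPM in WT, and CCN2, the connective tissue growth factor gene, fell in both clones (-0.40 and -0.17, adjusted p = 6.83e-07 and 0.000941).

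**Figure D4:**
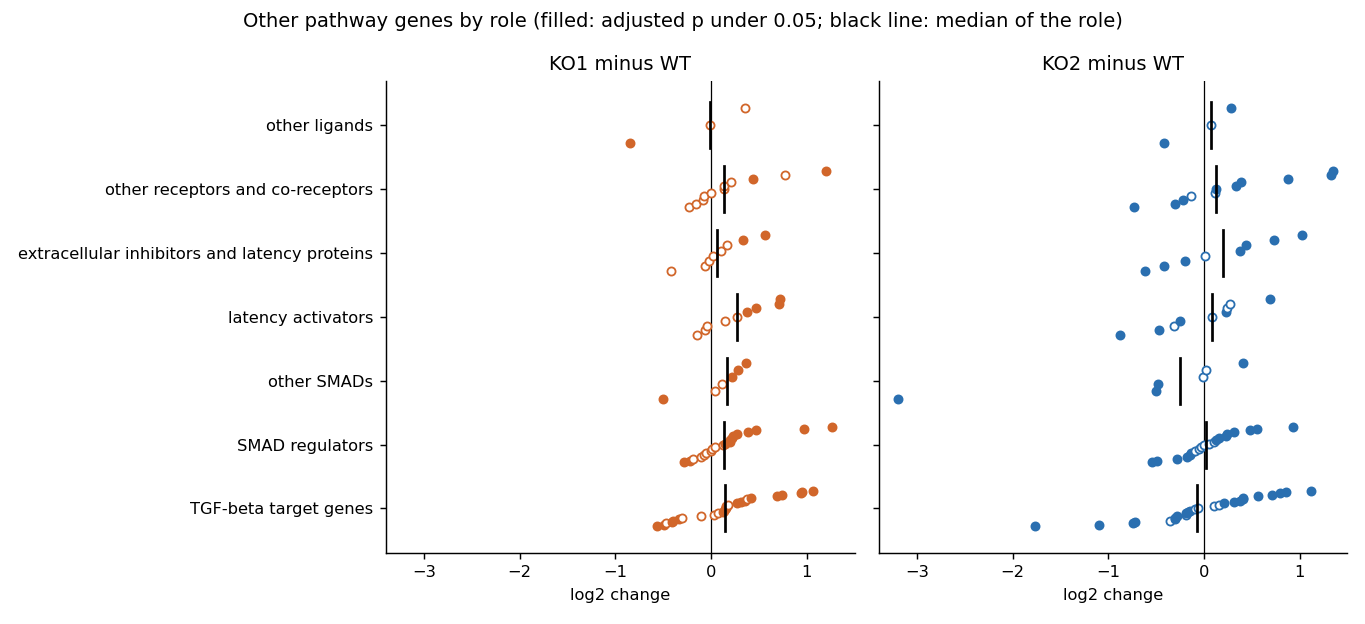
Log2 change from WT of the tested pathway genes other than the 10 members, by role, in KO1 and KO2; filled points passed the test at an adjusted p under 0.05 and the short lines are medians. SMAD6 in KO2 (-3.20) is the lowest point of the plot.

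The profile of INHBA over the 9 libraries was most like that of KLF13, a zinc finger transcription factor gene, with a Pearson r of 0.995 of log2 CPM among 10614 genes whose mean was 2 or more. It was followed by UBE2H (0.992), CHRDL1 (0.992), SASH1 (0.991) and LHFPL2 (0.990). KLF13 was at 5.21 CPM in WT, 11.4 in KO1 and 8.66 in KO2, and the log2 changes of the other 4 were 0.43 to 0.51 in KO1 and 0.28 to 0.38 in KO2. CHRDL1 encodes chordin-like 1, an extracellular BMP antagonist. The 9 points share their 3 groups, so r mostly reflects the order WT, KO2, KO1, and it is given as a description without a p.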

How the data were processed

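Raw counts per gene symbol, in whole numbers, are what the authors deposited for each of the 9 libraries. The submitters' processing notes list Trim Galore and HISAT2, and human (hg38) and mouse (GRCm38, mm10) builds without saying what each was used for. No read counter, annotation, strand setting or tool version is stated in the labels. Per the labels' protocols, TruSeq libraries were made from RNA with an integrity number of 10.

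These counts were fitted in R 4.3.3 with edgeR 4.0.16: filterByExpr (17759 genes kept), TMM scaling and a robust quasi-likelihood fit with 1 mean per group over all 9 libraries. Adjusted p-values (Benjamini-Hochberg over all tested genes) were called under 0.05; the biological coefficient of variation was 7.5%. Standard errors are the change divided by the root of the quasi-F value. The contrast KO1 minus KO2 also tests whether the clones' changes from WT differ. The procedure was also run on simulated counts with 200 genes changed in KO1 only, fewer than were called in the data. No result given here rests on that run. Replicate libraries all differed by more than sampling noise (chi-square over its degrees of freedom, 6.12 to 31.3).

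Positions, exon lengths and GC content came from GENCODE 29 (GRCh38), which held 55842 symbols. The GC trend of each library was removed by a lowess curve (span 0.3) over genes whose mean log2 CPM was 2 or more. Alternatives used DESeq2 1.42.0 size factors or its test, upper quartile factors, limma-voom (limma 3.58.1), other filters, the 2 groups alone, a replicate block and each library left out.

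The members and gene lists were chosen with earlier results of these data known. Named besides the members and FBXL12 were up to 4 genes of each role list with the smallest p over both clones among those called, overlapping or adjacent genes, and the 5 genes most correlated with INHBA; SMAD4, genes listed as untested and marker genes were named after their values were seen, as were the neighbourhoods of genes that are no members. Figures were drawn with matplotlib 3.10.9.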

Additional observations from a re-analysis of the deposited data

Results flagged for a closer look

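The following genes differed between KO1 and KO2 in their change from WT by the test of the difference itself (edgeR, adjusted p under 0.05), and are given as the KO1 change minus the KO2 change on the log2 scale. Of the members, the difference was 0.81 for INHBA, 0.36 for INHBB, 0.29 for TGFB1, 0.47 for TGFB2, -0.16 for TGFBR1, 0.26 for TGFBR2, 0.79 for SMAD3, 0.63 for SMAD7 and 0.72 for SKIL. SMAD3 and SKIL rose in one clone and fell in the other. With 48.9% of all tested genes called in this comparison, a difference between the clones was the common case. The libraries without which TGFB1 (KO2 library 1, 0.32, and KO2 library 3, 0.24) and TGFBR1 (-0.09 to -0.17) did not pass are given with those genes.

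Among secreted factors, receptors and inhibitors, the difference was -0.43 for TGFB3, -0.29 for GDF11, -0.75 for BMPR2, 0.49 for BMPR1B, -1.05 for LTBP2 and -0.70 for BAMBI. That of TGFB3 did not pass without KO1 library 2 (-0.31) or 3 (-0.47) or KO2 library 1 (-0.30) or 2 (-0.46). Among latency activators it was 0.96 for THBS1, -0.22 for ITGAV, 0.31 for ITGB1 and 0.41 for ITGB5.

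Among SMADs and their regulators, it was 3.24 for SMAD6, 0.78 for SMAD2, 0.49 for PMEPA1, 0.33 for LDLRAD4, 0.32 for TGIF2 and -0.34 for HIPK2; that of LDLRAD4 did not pass without KO1 library 3 (0.33). SMAD6 was the widest of all. Among target genes and genes beside the members, it was -0.23 for CCN2, -0.14 for KLF10 and -1.0 for TGFB2-AS1. The KLF10 difference did not pass without KO1 library 1 (-0.13) or 3 (-0.11) or KO2 library 1 (-0.14) or 3 (-0.10). TGFB2-AS1, with at most 42 reads per library, did not pass without KO1 library 2 (-0.77) or 3 (-1.05) or KO2 library 1 (-0.93) or 3 (-0.72).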

How the results depend on the processing

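Over 18 alternatives, the counts of called members, of other called pathway genes and of all called genes stayed within 1.5 times their reported values in each contrast. Of 540 recomputed changes of members, 503 counted as unchanged, 22 lost and 11 gained a call, and 2 changed sign. The other 2, of INHBA without WT library 3 (2.81 in KO1 and 1.99 in KO2), moved by at least the reported SE times the root of 1.5. Unchanged means the same direction and side of the threshold. For INHBA against WT, which carries no test, it means the same direction and a smaller move than that. TGFB1 changed sign in KO2 with the GC trend removed (0.14), and in KO1 over left-out libraries (-0.051 to 0.144). Of the other named genes, 6 had a change that did not pass the test and took the other sign in at least 1 alternative. In KO1, ITGB5 was at 0.026 and LTBP2 at 0.12 with the GC trend removed. Over left-out libraries, GDF11 in KO1 ranged from -0.043 to 0.0301, ITGB5 from -0.095 to 0.0035, LTBP2 from -0.046 to 0.0398 and TGFB2-AS1 from -0.0504 to 0.341; KO1 minus KO2 ranged from -0.258 to 0.029 for ACVRL1 and from -0.193 to 0.033 for B9D2. The cause of these shifts was not tested.

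Same-numbered libraries did not consistently deviate together (r = -0.526 to 0.478), and differently numbered ones had r from -0.489 to 0.536. With 3 libraries in each group, these values cannot decide whether the numbers pair them. With a replicate block, 5, 7 and 7 members were called in KO1, KO2 and KO1 against KO2, and the genes called in KO1 minus WT, KO2 minus WT and KO1 minus KO2 numbered 5544, 8302 and 8240. The block removed the calls of TGFBR1 in KO1 (0.17) and in KO1 against KO2 (-0.16) and that of TGFB1 in KO1 against KO2 (0.29). Depth limits SMAD6 in KO2, ACVRL1 and the antisense genes, which have few reads.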
